A study of Mus musculus with 10 samples.

Results

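Chamber identity and conduction transcription factors were followed in whole embryonic mouse hearts as 10 genes: the Iroquois homeobox genes Irx3, Irx4 and Irx5, the Hairy-related repressors Hey1 and Hey2, the T-box repressors Tbx2 and Tbx3, the LIM homeobox gene Isl1, the homeobox gene Prox1 and the zinc finger gene Gata5. Every probe set whose platform annotation names exactly 1 of these genes was taken, which gave 18 probe sets out of 34945 with 1 gene symbol, and all 10 genes were found. Irx3, Irx4, Irx5, Hey1, Hey2 and Tbx2 each had 1 probe set, Gata5 and Isl1 had 2, Prox1 had 3 and Tbx3 had 5.

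The samples were Hccs het KO hearts, heterozygous for a heart-conditional deletion of Hccs, and control hearts of littermates. All embryos were female and at 13.5 dpc (days post coitum), and each of the 5 arrays per genotype carried RNA from a pool of 4 to 5 hearts of 1 genotype. Hccs, which lies on the X chromosome, encodes the mitochondrial haem lyase of cytochromes c and c1, so through X inactivation a heterozygous female heart holds both healthy and enzyme-deficient cells. The Cre line that restricts the deletion to the heart, and the genotype of the controls beyond "control", are not given in the sources used here. The Hccs het KO hearts are described by the submitters as regenerating.

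The heart tube is patterned into working chamber muscle, which grows and conducts quickly, and into slowly conducting regions (sinoatrial node, atrioventricular canal and outflow tract) that keep a more primitive state. Tbx2 and Tbx3 hold the slowly conducting regions in that state by repressing chamber genes, whereas Hey1 in atrial muscle and Hey2 in ventricular muscle limit Tbx2 to the canal. The Iroquois factors set regional programmes inside the ventricle, Isl1 marks second heart field progenitors and pacemaker cells, Prox1 acts in cardiac muscle and lymphatic endothelium, and Gata5 works beside Gata4 and Gata6 in endocardium and muscle.

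The arrays were comparable in their overall distribution, with medians from 3.65 to 3.76 log2 units over all 45101 probe sets. Cardiomyocyte markers were bright in all 10 pools, with a mean log2 signal of 9 markers from 13.90 to 14.13 in Hccs het KO hearts and from 14.15 to 14.51 in control hearts. In this mean every Hccs het KO pool lay below every control pool, and its part in the values of other genes was not tested. Hccs itself, by its brighter probe set, was lower in every Hccs het KO pool than in any control pool (log2 difference -0.55, exact two-sided permutation p = 0.00794, limma adjusted p = 0.0225). Its dimmer probe set also separated the groups but changed less, by -0.40, and did not pass (limma adjusted p = 0.0936). The call of the brighter probe set was lost without Hccs het KO replicate 2 or 4 or control replicate 2 or 3 (limma adjusted p up to 0.0563). It was also lost with the replicate block (limma adjusted p = 0.0735) and without the arrays numbered 3 (0.071). With the 18S signal described next as a covariate, Hccs stood at -0.50 (limma adjusted p = 0.109), and with control pool 3 also left out at -0.14 (limma adjusted p = 0.9998). In that last fit the 18S signals of the genotypes no longer overlap, so it can hardly separate genotype from 18S. There 0 of all genes passed, so a lost call in it says little about a single gene. Single pools stood apart in markers of neighbouring tissues, which bears on Tbx2, Tbx3 and Isl1 and is given with those genes. A control probe set for 18S ribosomal RNA, a sign of residual ribosomal RNA, read 7.84 to 8.57 in Hccs het KO hearts and 8.06 to 11.45 in control hearts. Control pool 3 was the lowest control, and the other control pools read at least 9.88. The log2 difference of the 18S signal was -1.88 (exact two-sided permutation p = 0.0238). Its part in the results was not tested beyond the covariate fits given in this report. The number of arrays limits the precision. The pools are labelled as biological replicates, but whether the numbers mark litters or days is not stated.

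None of the 10 genes passed the threshold, an adjusted p under 0.05 in limma over 18193 genes, and their log2 differences, Hccs het KO minus control, lay between -0.49 and 0.63. Over all genes 2.58% passed, 1.63% higher and 0.945% lower in Hccs het KO hearts. Gata5 alone of the 10 had an unadjusted limma p under 0.05, a level that 20.6% of all genes reached. In 0 of the 10 were the groups fully separated, as they were in 5.79% of all genes. Of the 18 probe sets, each fitted on its own, 0 passed, where 1.71% of all probe sets with 1 symbol did, and 2 had an unadjusted limma p under 0.05, both of Gata5, where 20.2% did. Groups did not overlap in 0 of the 18, where 5.58% of probe sets had that. The log2 difference was below 0 for 6 of the 10 genes and above 0 for 4, with a median of -0.05, while over all genes 39.5% were below 0 and the median was 0.02. The 95% intervals given with each gene show how large a difference the pools still allow. In bulk tissue, fewer cells of a type and less RNA per cell cannot be told apart.

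**Figure D1:**
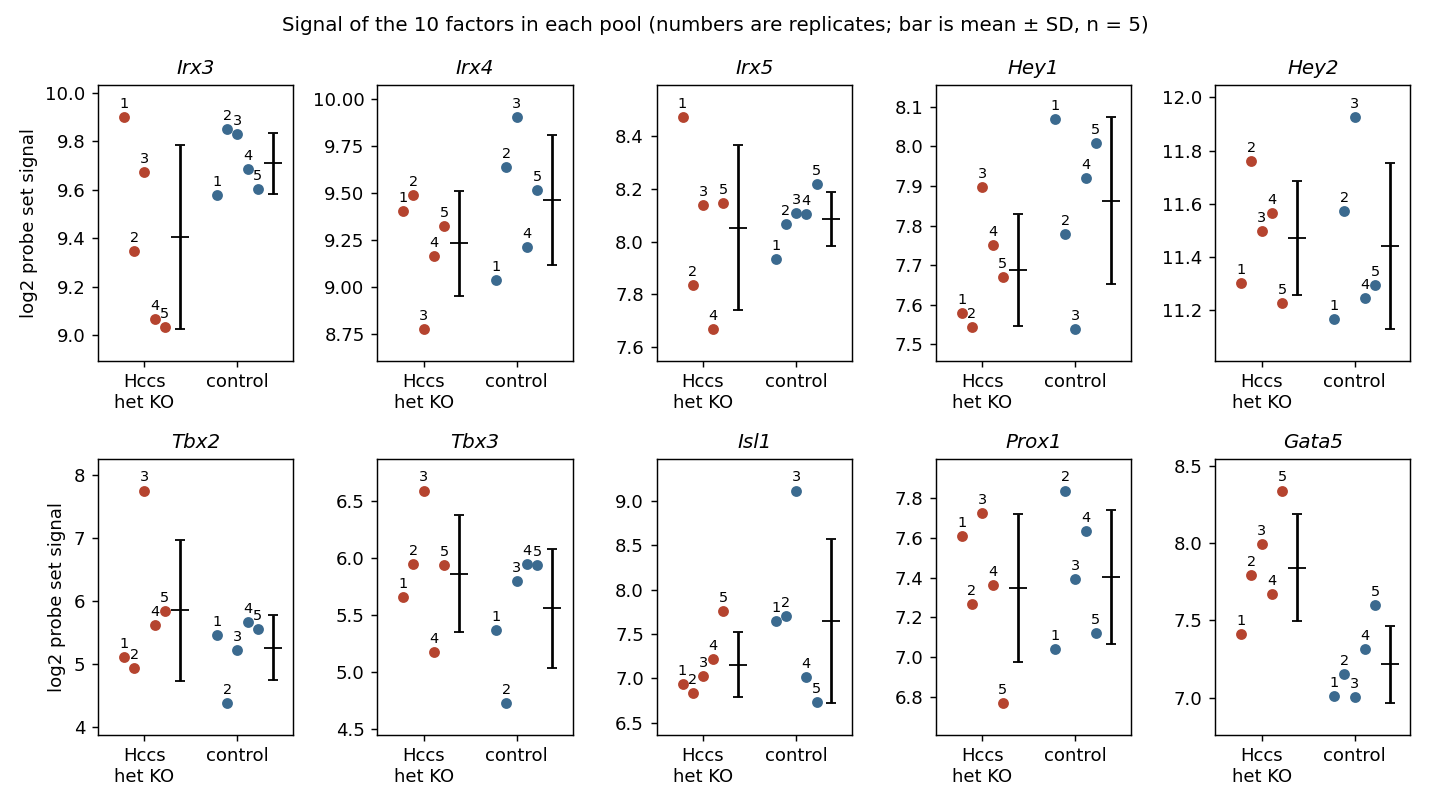
Log2 probe set signal of the 10 factors (brightest probe set of each gene) in every pool, with Hccs het KO pools in red at the left and control pools in blue at the right; digits are replicate numbers, bars give mean ± SD (n = 5), and each panel has its own vertical range. The groups overlap in all 10 panels. Gata5 comes closest to separation, and Tbx2 and Isl1 each have 1 pool, numbered 3, far above the rest.

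Among the factors of the ventricular wall, Irx3 had the smallest p of those with a change below 0. Irx3 is expressed in trabecular muscle and in the bundle branches, where it promotes fast conduction. Its log2 signal was 9.90, 9.35, 9.67, 9.07 and 9.03 in Hccs het KO pools 1 to 5 and 9.58, 9.85, 9.83, 9.69 and 9.60 in control pools 1 to 5. Hccs het KO pools 2, 4 and 5 lay below every control pool, pool 3 lay inside the control range and pool 1 lay above it. The log2 difference was -0.31 (95% interval -0.67 to 0.06, SE 0.16, limma adjusted p = 0.320). The control pools were tight, with an SD of 0.13, and the Hccs het KO pools were spread, with an SD of 0.38. Without Hccs het KO replicate 1 the change was -0.43 with a limma adjusted p of 0.0981, which also missed the threshold.

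Irx4 is a ventricle-restricted factor that holds the ventricular myosin programme on and the atrial one off. It read 9.41, 9.49, 8.78, 9.16 and 9.33 in Hccs het KO pools and 9.04, 9.64, 9.91, 9.21 and 9.52 in control pools. The lowest value belonged to a Hccs het KO pool and the highest to a control pool, and the other values interleaved. The log2 difference was -0.23 (95% interval -0.64 to 0.18, limma adjusted p = 0.493), and it was -0.12 without Hccs het KO replicate 3 or without control replicate 3.

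Irx5, which is expressed in endocardium and shapes the repolarisation gradient of the ventricular wall, had the flattest profile of the Iroquois members. Its signal was 8.47, 7.84, 8.14, 7.67 and 8.15 in Hccs het KO pools and 7.93, 8.07, 8.11, 8.10 and 8.22 in control pools. The Hccs het KO pools reached both further up and further down than the control pools, and the means were 8.05 ± 0.31 and 8.09 ± 0.10 (SD, n = 5 each). The log2 difference was -0.03 (95% interval -0.34 to 0.27), so an increase of over 1.21-fold or a decrease to under 0.792 of the control level lies outside the interval.

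The other Iroquois genes on the array were compared because they sit in the same clusters: Irx3, Irx5 and Irx6 are neighbours in the genome, as are Irx1, Irx2 and Irx4. Irx1 had a log2 difference of -0.04, Irx2 of -0.19 and Irx6 of -0.06 (named after their values were seen). The 6 Iroquois genes were all below 0, as were 39.5% of all genes, and their median was -0.13. With a single array left out, Irx1, Irx5 and Irx6 turned to as much as 0.01, 0.06 and 0.13, so those signs were within the spread of the pools. In limma none of the 6 passed the threshold and 0 had an unadjusted limma p under 0.05.

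Hey1 and Hey2 are basic helix-loop-helix repressors, induced by Notch in endocardium and under other control in chamber muscle. Hey2, the factor of the compact ventricular wall, read 11.30, 11.76, 11.50, 11.57 and 11.23 in Hccs het KO pools and 11.17, 11.57, 11.93, 11.24 and 11.30 in control pools. The groups lay on top of each other, with a log2 difference of 0.03 (95% interval -0.32 to 0.38, limma adjusted p = 0.928). Hey1, the atrial counterpart, read 7.58, 7.54, 7.90, 7.75 and 7.67 in Hccs het KO pools and 8.07, 7.78, 7.54, 7.92 and 8.01 in control pools. The 3 highest Hey1 values were from control pools, and the lowest, by less than 0.01, was from control pool 3. The log2 difference of Hey1 was -0.18 (95% interval -0.41 to 0.06, limma adjusted p = 0.373), and it had the smallest residual SD of the 10 genes, 0.18. The third family member, Heyl, a Notch target of vascular muscle (named after its value was seen), had 0.24 with an SE of 0.096 (limma adjusted p = 0.203).

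Genes of the Notch pathway, listed for its link to Hey1 and Hey2, gave no call. None of 16 measured Notch ligands, receptors and targets passed in limma, 3 had an unadjusted limma p under 0.05 (18.75%, against 20.6% of all genes), and the list median was -0.01. Jag1, a ligand and the brightest of them, had a log2 difference of 0.05 (SE 0.16). The smallest p was that of Notch4, a receptor of endothelium chosen after its value was seen, with -0.65 (SE 0.16, limma adjusted p = 0.0655, and 0.0409 to 0.139 with single arrays left out). The change of Notch4 ran from -0.78 to -0.54 with single arrays left out, but from -0.78 to -0.20 over all alternative settings. The endothelial and endocardial marker list, 8 of 8 measured, had a mean log2 signal of 9.53 to 9.67 in Hccs het KO hearts and 9.62 to 9.84 in control hearts, and its part in the Notch4 value was not tested.

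**Figure D2:**
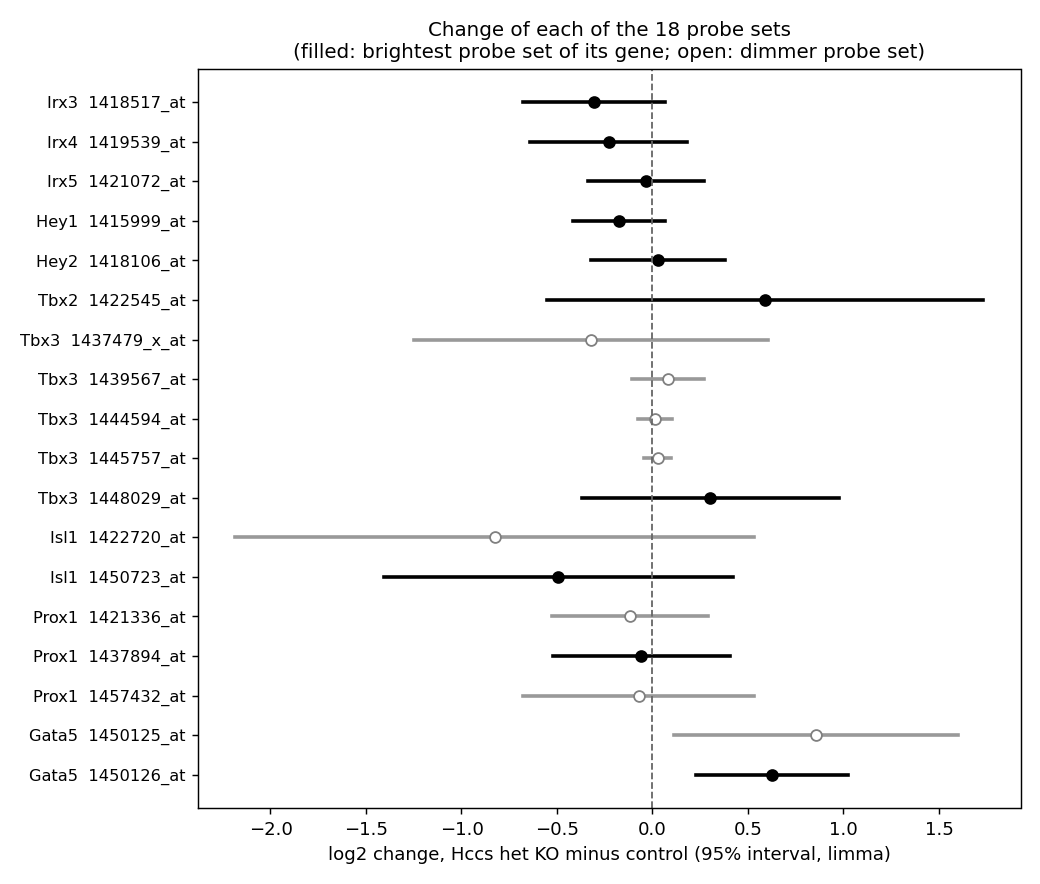
Log2 difference of each of the 18 probe sets, Hccs het KO minus control, with its 95% interval from limma; filled points are the brightest probe set of a gene and open points the dimmer ones. The intervals of both Gata5 probe sets lie above 0 before adjustment over all probe sets, those of Tbx2 and Isl1 are wide, and the brightest Tbx3 probe sets point in opposite directions.

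Tbx2 and Tbx3, the repressors of the atrioventricular canal, the outflow tract and the conduction system, had positive changes of their brightest probe sets. Tbx2 read 5.11, 4.94, 7.76, 5.61 and 5.84 in Hccs het KO pools and 5.47, 4.38, 5.23, 5.67 and 5.56 in control pools. Hccs het KO pool 3 was far above the other 9 pools, which shared 1 range. The log2 difference was 0.59 (95% interval -0.54 to 1.72, limma adjusted p = 0.525), and without Hccs het KO replicate 3 it was 0.11 (limma adjusted p = 0.855). The residual SD of Tbx2, 0.88, was larger than that of 99.4% of all genes.

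Tbx3 was measured by 5 probe sets, of which 3 had means below every array median and carried little information. The brightest probe set read 5.66, 5.95, 6.59, 5.18 and 5.94 in Hccs het KO pools and 5.37, 4.73, 5.80, 5.95 and 5.94 in control pools. Its log2 difference was 0.30 (95% interval -0.36 to 0.97, limma adjusted p = 0.583). The next brightest read 3.86, 3.94, 5.34, 3.03 and 4.26 in Hccs het KO pools and 4.77, 4.41, 4.92, 3.47 and 4.49 in control pools. Its log2 difference was -0.32 (95% interval -1.25 to 0.61), so the direction of Tbx3 depended on the probe set, while Hccs het KO pool 3 was the highest pool in both. Without that pool the log2 difference of the brightest probe set was 0.12, and without control replicate 2 it was 0.10.

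Hccs het KO pool 3 also carried transcripts of lung and foregut epithelium. Sftpc, which encodes a surfactant protein of lung, read 7.08 there, 2.72 to 2.77 in the other Hccs het KO pools and 2.65 to 2.83 in control pools. Cdh1, Epcam and Foxa2, which mark epithelium and foregut endoderm, were also highest in that pool, at 7.86, 8.21 and 5.62. Epithelial signal was not particular to it, since Cdh1 read 6.81 in Hccs het KO pool 4 and 6.34 and 6.30 in control pools 1 and 4. Sox2, a foregut factor of the same list, was highest in Hccs het KO pool 4, at 7.43, then in control pool 4, at 7.18, and read 6.84 in Hccs het KO pool 3. The mean log2 signal of the 7 markers, all measured, was 3.38 to 6.52 in Hccs het KO hearts and 3.10 to 4.94 in control hearts, and none of them passed in limma. Nkx2-1, a defining factor of lung and thyroid, stayed at 1.49 to 1.57 in all 10 pools. Embryonic lung mesenchyme is known to express Tbx2 and Tbx3. Whether carried-over tissue accounts for the Tbx2 and Tbx3 signal of this pool was not tested.

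Isl1 showed the opposite arrangement, with the outlying pool among the controls. It read 6.94, 6.83, 7.02, 7.21 and 7.76 in Hccs het KO pools and 7.65, 7.71, 9.12, 7.02 and 6.74 in control pools. Control pool 3 was by far the highest of all pools, and the remaining values overlapped. The log2 difference was -0.49 (95% interval -1.39 to 0.41, limma adjusted p = 0.509), and without control replicate 3 it was -0.12 (limma adjusted p = 0.827). The dimmer Isl1 probe set read 3.21, 2.14, 2.22, 2.36 and 2.11 in Hccs het KO pools and 3.41, 2.30, 5.60, 2.17 and 2.70 in control pools. It too was highest in control pool 3, and its log2 difference was -0.83 (95% interval -2.18 to 0.53). With the 18S signal as a covariate the difference of the brighter probe set was -1.73 and passed (limma adjusted p = 0.0430). With control pool 3 also left out it was -1.16 and did not pass (limma adjusted p = 0.932), in a fit where 0 of all genes passed.

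Besides second heart field derivatives and pacemaker cells, Isl1 is known in neurons of the peripheral nervous system, and 3 neuronal markers, Stmn2, Elavl4 and Th, were highest in the same pool. Stmn2, a neuronal tubulin-binding protein, read 9.58 in control pool 3, against 6.45 to 7.06 in Hccs het KO pools and 6.28 to 8.11 in the other control pools. Elavl4, a neuronal RNA-binding protein, read 7.30 there, and Th, the enzyme of catecholamine synthesis, read 3.43 where all other pools lay between 1.92 and 2.01. The list of cardiac ganglia and neural crest markers, 6 of 9 measured, had a mean log2 signal of 3.71 to 3.98 in Hccs het KO hearts and 3.69 to 5.10 in control hearts, with Foxd3 between 1.67 and 1.86 in all pools. Not every member of the list followed: Phox2a, a factor of autonomic neurons, was highest in control pool 2, at 4.04, and read 3.36 in control pool 3. The part of these cells in the Isl1 value was not tested.

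**Figure D3:**
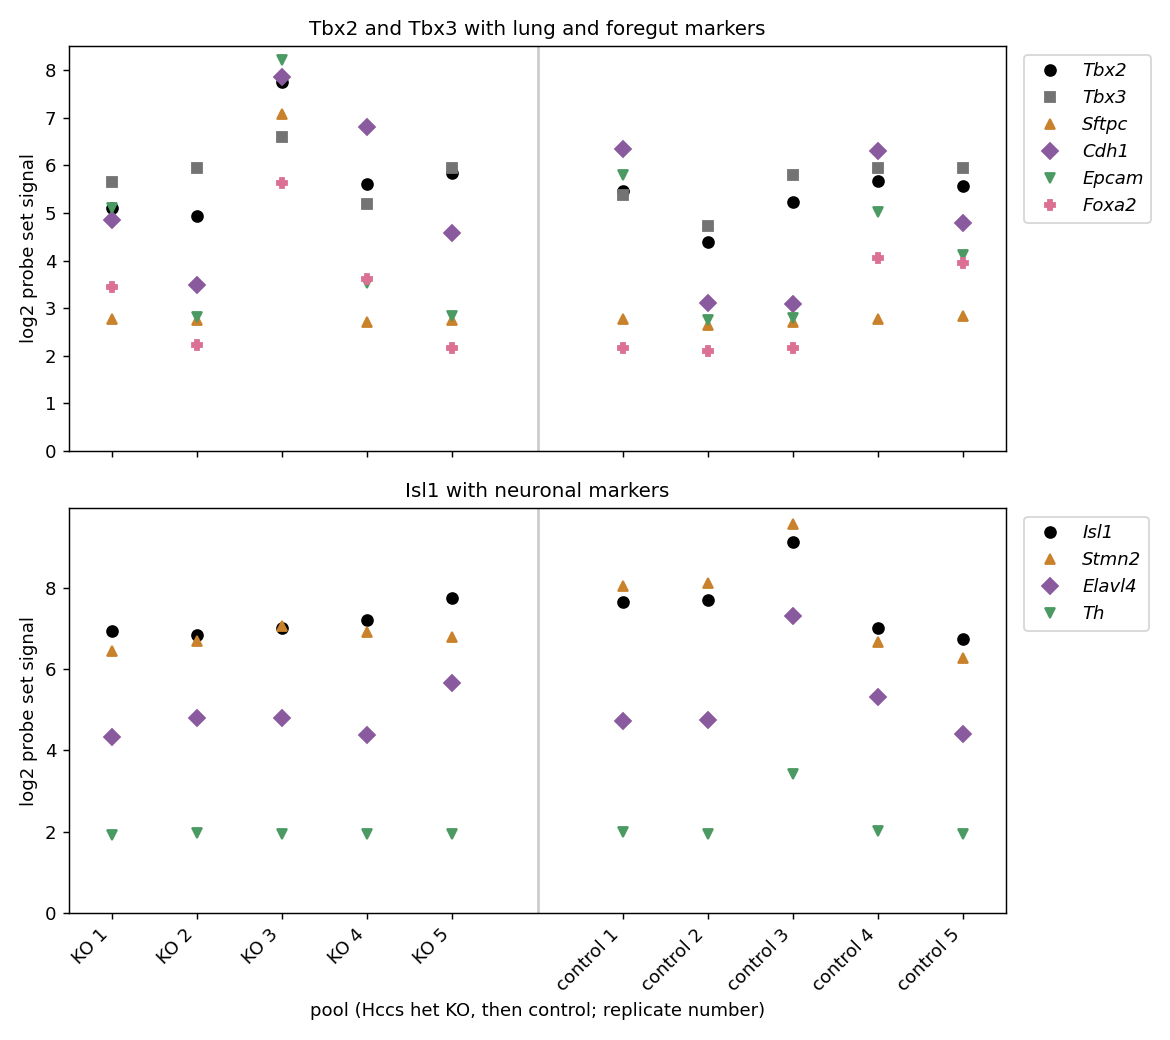
Log2 probe set signal in each pool of Tbx2 and Tbx3 with 4 markers of lung and foregut epithelium (upper panel) and of Isl1 with 3 neuronal markers (lower panel); Hccs het KO pools stand left of the control pools. In Hccs het KO pool 3, Tbx2 reads 7.76 and Sftpc 7.08; in control pool 3, Isl1 reads 9.12 and Stmn2 9.58.

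Genes known to act below or beside Tbx2, Tbx3 and Isl1 were described from lists, read against 2.58% of genes called overall. Of 6 measured chamber genes that Tbx2 and Tbx3 repress, none passed in limma, 2 had an unadjusted limma p under 0.05, and the median log2 difference was -0.02. Nppa, atrial natriuretic peptide and the brightest, had a log2 difference of 0.01 (95% interval -0.17 to 0.19). Gja1, the ventricular gap junction protein named after its value was seen, had 0.45 with groups that did not overlap (limma adjusted p = 0.0543, and 0.0465 to 0.119 with single arrays left out). The change of Gja1 ran from 0.40 to 0.51 with single arrays left out, but from 0.19 to 0.54 over all alternative settings. Ryr2, the calcium release channel, also named after its value was seen, had -0.66 (SE 0.22, limma adjusted p = 0.143, and 0.0292 to 0.260 with single arrays left out).

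Of 14 measured pacemaker and conduction genes none passed in limma, and 4 had an unadjusted limma p under 0.05 (28.6%, against 20.6% of all genes). Below 0 were 10 of them (71.4%, against 39.5% of all genes), and the median was -0.14. Gjc1, the gap junction protein of slowly conducting tissue and the brightest, had a log2 difference of -0.08 (SE 0.068).

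None of 10 measured genes of the second heart field and outflow tract passed in limma. The list median was 0.06, and 1 gene had an unadjusted limma p under 0.05 (10%, against 20.6% of all genes). Hand2, a factor of right ventricle and outflow tract and the brightest of them, had a log2 difference of 0.03 (SE 0.095).

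In the BMP pathway, which induces Tbx2 and Tbx3, 1 of 18 genes passed in limma. In this list 7 genes had an unadjusted limma p under 0.05 (38.9%, against 20.6% of all genes). Smad5, a signal transducer, fell by 0.29 on the log2 scale (SE 0.048, limma adjusted p = 0.0225). It read 8.83, 8.74, 8.91, 8.79 and 8.93 in Hccs het KO pools and 9.17, 9.06, 9.23, 9.11 and 9.09 in control pools, and the groups did not overlap. With the mean of its probe sets in place of the brightest, Smad5 stood at -0.03 (limma adjusted p = 0.890), and with the most variable one at -0.15 (0.691). The probe sets of this gene thus disagreed. The call was also lost without Hccs het KO replicate 2 or 4 or control replicate 1 or 3 (limma adjusted p up to 0.0584). It was lost too with the replicate block (limma adjusted p = 0.0706) and without the arrays numbered 3 (0.0825). With the 18S covariate and control pool 3 left out, where 0 of all genes passed, the limma adjusted p was 0.909. Id2, a target of BMP signalling and the brightest of those not called, stood at 0.45 with groups that did not overlap (SE 0.10, limma adjusted p = 0.0502, and 0.0189 to 0.111 with single arrays left out). The change of Id2 ran from 0.38 to 0.51 with single arrays left out, but from 0.12 to 0.51 over all alternative settings. The list median was 0.18, against 0.02 over all genes, and 13 of 18 changes were above 0, as were 11009 of all 18193 genes.

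**Figure D4:**
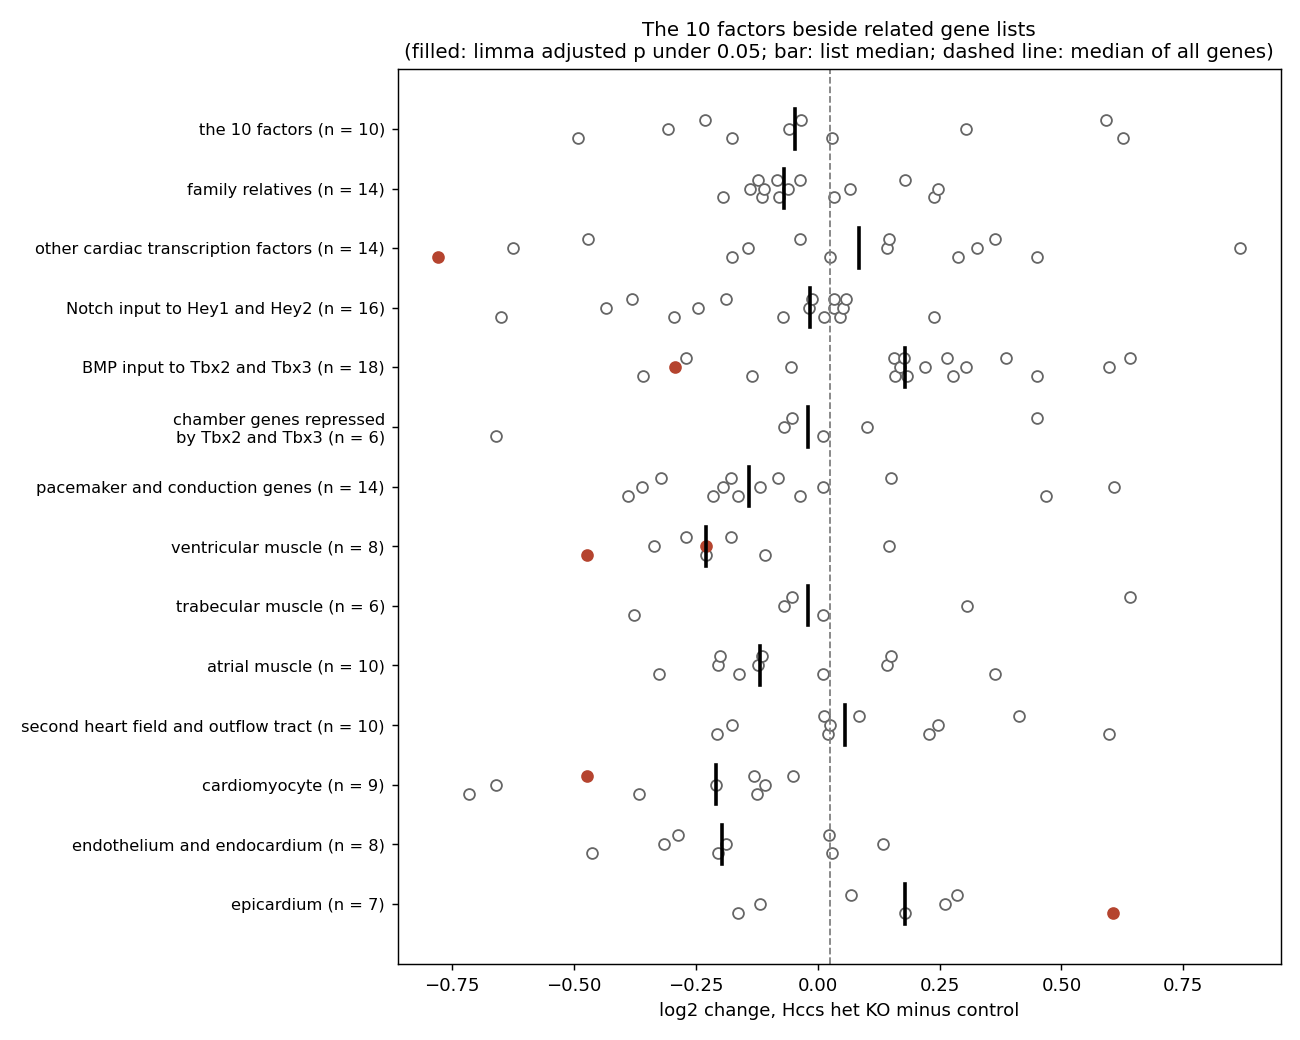
Log2 difference, Hccs het KO minus control, of the 10 factors and of every measured gene of 13 related lists (1 point per gene, stacked only for legibility); filled points passed a limma adjusted p of 0.05, black bars are list medians, and the dashed line is the median of all genes, 0.02. None of the 10 factors is filled, while Nkx2-5, Smad5, Myh7, Myl2 and Tcf21 are.

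Prox1, which in heart muscle maintains sarcomere structure and in lymphatic endothelium sets cell identity, was measured by 3 probe sets that gave the same picture. The brightest read 7.61, 7.27, 7.73, 7.36 and 6.77 in Hccs het KO pools and 7.04, 7.84, 7.39, 7.63 and 7.12 in control pools. The groups overlapped almost fully, with Hccs het KO pool 5 the lowest of all in each of the 3 probe sets. The log2 differences of the 3 probe sets were -0.06, -0.07 and -0.12, and the interval of the brightest was -0.52 to 0.40 (limma adjusted p = 0.894). The mean log2 signal of the lymphatic markers, 4 of 5 measured, was 7.82 to 8.12 in Hccs het KO hearts and 7.89 to 8.15 in control hearts. None of these 4 passed in limma. Prox1 is also a gene of liver, and markers of liver differed between pools, with a list mean of 4.20 to 8.37 in Hccs het KO hearts and 4.32 to 6.59 in control hearts. The part of liver tissue in the Prox1 values was not tested.

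Gata5 was the member nearest to the threshold. It encodes a zinc finger factor that in the mouse heart is expressed mainly in endocardium and the endocardial cushions at mid-gestation. The brighter probe set read 7.41, 7.79, 7.99, 7.67 and 8.34 in Hccs het KO pools and 7.01, 7.15, 7.00, 7.31 and 7.60 in control pools. Of the 5 Hccs het KO pools 4 lay above every control pool, and pool 1 lay below control pool 5 alone. The means were 7.84 ± 0.35 and 7.22 ± 0.25 (SD, n = 5 each), a log2 difference of 0.63 (95% interval 0.23 to 1.02, SE 0.18) and a fold of 1.54.

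The limma adjusted p of Gata5 was 0.0930, and the exact two-sided permutation p of this single value was 0.0159, where 5 against 5 arrays allow no p below 0.00794. Gata5 is the smallest p of 10 genes, and the permutation p is not adjusted for that choice. With 1 array left out the change stayed between 0.50 and 0.73, and the limma adjusted p lay between 0.0370, without Hccs het KO replicate 1, and 0.187. The dimmer probe set read 4.40, 5.12, 5.24, 3.55 and 5.25 in Hccs het KO pools and 3.77, 3.69, 4.28, 3.44 and 4.10 in control pools. It pointed the same way, with a log2 difference of 0.86 (SE 0.33, limma adjusted p = 0.198) and an exact two-sided permutation p of 0.0635 (n = 5 each), and its Hccs het KO pool 4 lay within the control range.

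Gata4 and Gata6, the cardiac relatives of Gata5, had values below 0. Gata4, a cardiac muscle and endocardial activator, had a log2 difference of -0.11 (SE 0.12, limma adjusted p = 0.598), and Gata6 had -0.11 (SE 0.041, limma adjusted p = 0.176). Gata5 minus the mean of Gata4 and Gata6 was compared in each pool. It lay from -3.29 to -2.44 in Hccs het KO pools and from -3.90 to -3.35 in control pools. The difference was 0.74 (exact two-sided permutation p = 0.00794, the smallest that 5 against 5 arrays allow). Gata5 was singled out from these same values as the smallest p of 10 genes, and this p is not adjusted for that choice.

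Endothelial and endocardial markers were set beside Gata5. Of the 8 markers none passed in limma, 4 had an unadjusted limma p under 0.05 (50%, against 20.6% of all genes), and the list median was -0.20. The epicardial list, 7 of 7 measured, had a mean log2 signal of 9.68 to 10.01 in Hccs het KO hearts and 9.43 to 9.86 in control hearts. In it 1 gene, Tcf21, a factor of epicardium and its fibroblast descendants, rose by 0.61 on the log2 scale (SE 0.12, limma adjusted p = 0.0376) with groups that did not overlap. The call of Tcf21 was lost without Hccs het KO replicate 2, 3, 4 or 5 or control replicate 2, 3 or 4 (limma adjusted p up to 0.0846). It was also lost with the replicate block (limma adjusted p = 0.0706) and without the arrays numbered 3 (0.0944). With the mean of its probe sets Tcf21 stood at 0.27 (limma adjusted p = 0.0931). With the 18S covariate and control pool 3 left out it stood at 0.39 (limma adjusted p = 0.9998), in a fit where 0 of all genes passed. The valve and cushion mesenchyme list, 7 of 7 measured and with 0 called in limma and 0 at an unadjusted p under 0.05, had a mean of 9.96 to 10.28 in Hccs het KO hearts and 9.70 to 10.11 in control hearts. The part of these cells in the Gata5 value was not tested.

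Among chamber muscle genes, the ventricular list held the calls. Of 8 measured ventricular genes 2 passed in limma, both lower in Hccs het KO hearts (25%, against 2.58% of all genes called). Below 0 were 7 of the 8 (87.5%, against 39.5% of all genes) and above 0 was 1, with a list median of -0.23. Before adjustment, 5 of the 8 had a limma p below 0.05 (62.5%, against 20.6% of all genes), among them the gene above 0. Myh7, the slow myosin heavy chain, fell by 0.47 on the log2 scale (SE 0.082, limma adjusted p = 0.0250). Myl2, a light chain of ventricular myosin, fell by 0.23 (SE 0.042, limma adjusted p = 0.0291). Both calls were lost without Hccs het KO replicate 2, 3 or 4 or control replicate 1, 2 or 3, and that of Myl2 also without Hccs het KO replicate 5 (limma adjusted p up to 0.0617 for Myh7 and 0.0680 for Myl2). Both were also lost with the replicate block (0.0922 and 0.113), without the arrays numbered 3 (0.0905 and 0.113) and with the 18S covariate (limma adjusted p = 0.0547 and 0.127), and Myl2 with median centring (0.0645). The 9 cardiomyocyte markers given above were all below 0 as well, as were 39.5% of all genes. They held 1 call, Myh7, which is on both lists, and 7 of the 9 had an unadjusted limma p under 0.05 (77.8%, against 20.6% of all genes). The part of muscle content in the values of both lists was not tested. Myl3, the brightest that did not pass, had -0.23 (SE 0.062, limma adjusted p = 0.0870, and 0.0176 to 0.171 with single arrays left out). Its change ran from -0.28 to -0.10 over all alternative settings. Irx4 and Hey2, the ventricular members among the 10 factors, had -0.23 and 0.03 with wider intervals, -0.64 to 0.18 and -0.32 to 0.38. Of 10 atrial genes none passed in limma and 4 had an unadjusted limma p under 0.05 (40%, against 20.6% of all genes), with a median of -0.12. Myl4, the atrial light chain and the brightest, had -0.20 with groups that did not overlap (limma adjusted p = 0.0609, and 0.0320 to 0.132 with single arrays left out). The change of Myl4 ran from -0.24 to -0.17 with single arrays left out, but from -0.25 to -0.012 over all alternative settings. Of 6 trabecular genes none passed in limma and 1 had an unadjusted limma p under 0.05 (16.7%, against 20.6% of all genes). That gene was Bmp10, a growth factor of trabecular muscle named after its value was seen, at 0.64 (SE 0.15, limma adjusted p = 0.0583, and 0.0377 to 0.125 with single arrays left out), while Irx3, the trabecular member, had -0.31.

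Other cardiac transcription factors gave 1 call among 14 measured. Nkx2-5, a homeobox factor of the cardiac lineage and a partner of several T-box and Gata factors, fell by 0.78 on the log2 scale (SE 0.092, limma adjusted p = 0.0108). It read 10.68, 10.50, 10.20, 10.28 and 10.31 in Hccs het KO pools and 11.02, 11.23, 11.15, 11.15 and 11.31 in control pools. Every Hccs het KO pool lay below every control pool, and the call held with each single array left out (limma adjusted p up to 0.0338). The call was lost with the replicate block (limma adjusted p = 0.0571), without the arrays numbered 3 (0.0523) and with the 18S covariate (-0.68, 0.0534). With that covariate and control pool 3 left out, Nkx2-5 stood at -0.40 (limma adjusted p = 0.9998), in a fit where 0 of all genes passed. Shox2, a sinoatrial node factor of the same list chosen after its value was seen, varied widely, at 8.37, 8.80, 8.63, 9.92 and 10.79 in Hccs het KO pools and 8.95, 7.23, 7.55, 9.54 and 8.90 in control pools. Its groups overlapped (95% interval -0.43 to 2.16, limma adjusted p = 0.419), and control pool 3, the highest in Isl1, was among the lowest in Shox2. In this list 8 of 14 genes had an unadjusted limma p under 0.05 (57.1%, against 20.6% of all genes). That level was reached by 1 of the 10 factors (10%) and 2 of their 14 family relatives (14.3%). The difference between these shares was not tested. Of the 14 relatives (Irx1, Irx2, Irx6, Heyl, Hes1, Tbx1, Tbx5, Tbx18, Tbx20, Isl2, Prox2, Gata3, Gata4 and Gata6) none passed in limma, and Tbx20, a T-box factor of chamber muscle and the brightest, had -0.14 (95% interval -0.31 to 0.04).

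Genes with the most similar profile over the 10 arrays were looked up for the members with the smallest p in each direction, among 10906 genes above the 40th percentile of mean level. For Gata5 they were Ppp1r8 (Pearson r = 0.968), Ier5 (0.952) and Ddx52 (0.951). For Irx3 they were Bsdc1 (0.949), Pdzd8 (0.925) and Smarcc1 (0.919). Chosen after their values were seen, Tbx2 was most like Fzd7 (0.940), Adam12 (0.922) and Olfml3 (0.921), and Isl1 was most like Fam171b (0.964), Elavl2 (0.951) and Capn2 (0.946). These coefficients describe 10 arrays that share the genotype difference and, for Tbx2 and Isl1, a single high pool, and the highest of many genes is large by selection.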

How the data were processed

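The deposited table holds 1 log2 signal per probe set for each of 10 arrays. Per the submitters' processing notes the authors used RMA and Partek, with no versions given. RMA brings arrays to a common distribution, so these values cannot show a difference in total RNA per heart, and the compression of low signals is unknown. Of 45101 probe sets, 64 array controls, 932 with several symbols and 9160 with none were left out. The brightest of the other 34945 stood for each of 18193 genes. RefSeq (GRCm38.p6) gave the same symbols for all 18 probe sets and the gene order.

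Differences are Hccs het KO minus control. The model was limma 3.58.1 run under R 4.3.3 (eBayes after lmFit, genotype only, two-sided, no filter, Benjamini-Hochberg over all genes or all probe sets with 1 symbol, threshold 0.05). SE and 95% intervals are those of the moderated fit. Single values were also compared by exact permutation over 252 splits. In simulated data on 18193 genes with independent noise, changes were placed in randomly drawn genes. There 68 of 100 changes of 0.5 and 93 of 100 of 1 log2 unit were found, with 4 false calls in 165. The residual SDs of the members exceeded those of 72.5% (Hey1) to 99.4% (Tbx2) of all genes, so these shares do not apply to the members. Plots used matplotlib 3.10.9 in Python 3.11.15.

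The members and the 21 gene lists were chosen with earlier results of these data known. Named are all members, Hccs, up to 4 called genes per related list and the brightest not called, cell type markers, and the 3 genes most like Gata5 and Irx3. Any other gene was picked with its values in view.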

Additional observations from a re-analysis of the deposited data

Results flagged for a closer look

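In 84 groups of 5 pools (18 member probe sets, Hccs, 12 named list genes and 11 cell type list means, in each genotype), 5 had 1 pool far from the other 4, with a gap over 0.71 of the group's range; chance flags about 5% of groups. The dimmer Isl1 probe set read 3.21 in Hccs het KO pool 1, against 2.11 to 2.36 in the other 4. A Tbx3 probe set below every array median read 2.75 in Hccs het KO pool 3, the pool with the highest Tbx2, against 2.28 to 2.35. Another such Tbx3 probe set read 2.22 in control pool 2, against 2.31 to 2.34. The mean log2 signal of the red cell markers was 10.70 in Hccs het KO pool 4, against 11.04 to 11.13 in the other 4. That of the endothelial and endocardial markers was 9.62 in control pool 4, against 9.80 to 9.84 in the other control pools. The high pools of the brighter Tbx2 and Isl1 probe sets, with gaps of 0.682 and 0.593 of the range, stayed under the limit.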

How the results depend on the processing

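The count of members past the threshold was 0 in the reported fit. Among 25 alternatives it was 1 for genes above the median level and at a threshold of 0.1 (Gata5 both times), and 1 with the 18S signal as a covariate, for genes (Isl1) and for probe sets. With single arrays left out it ranged from 0 to 1 for genes and for probe sets. Without the arrays numbered 3 of both genotypes the differences of Tbx2, Isl1 and Gata5 were 0.10, -0.09 and 0.54. The count of related list genes, 4 of 96, was 0 with the replicate block, 7 with quantile normalization, 13 and 11 for genes above the median and above the lower quartile, 11 with trend and robust, 15 with array weights, 0 without the arrays numbered 3, 0 and 16 at thresholds of 0.01 and 0.1, 1 with the 18S covariate, 0 with that covariate and control pool 3 left out (added after seeing the data, when the 18S signals of the genotypes no longer overlap), and 1 to 12 with single arrays left out. Over all genes 469 passed in the reported fit, 36 with the replicate block, 30 without the arrays numbered 3, 14 and 1160 at thresholds of 0.01 and 0.1, 759 above the median, 945 with array weights, 296 with the 18S covariate, 0 with the 18S covariate and control pool 3 left out, and with single arrays left out 105 (without Hccs het KO replicate 4) to 1042 (without Hccs het KO replicate 1). Deviations of same-numbered pools were nearly uncorrelated (r from -0.09 to 0.08), and only replicate 4 matched its own number best. These correlations cannot show whether the numbers mark shared litters or days. With the replicate block 0 members passed. Signs turned as follows, and the cause was not tested. With single arrays left out, Irx5 ran from -0.14 to 0.063, Hey2 from -0.043 to 0.15, Prox1 from -0.15 to 0.087 (dimmer probe sets from -0.19 to 0.11 and from -0.22 to 0.0027), 2 dim Tbx3 probe sets from -0.014 to 0.027 and from -0.0038 to 0.11, Nppa from -0.039 to 0.071, Hand2 from -0.055 to 0.083, Jag1 from -0.024 to 0.18, Irx1 from -0.16 to 0.014 and Irx6 from -0.20 to 0.13. The first of these Tbx3 probe sets was -0.014 with quantile normalization and -0.0082 with array weights, Nppa was -0.0027 with array weights, and Gata4 was 2.3e-05 without the arrays numbered 3. With the 18S covariate Irx5 was 0.11, Hey1 0.056, Hey2 -0.31, Prox1 0.031 (dimmer probe sets 0.16 and 0.091), Hand2 -0.033, Irx1 0.056 and Irx6 0.14. With that covariate and control pool 3 left out, Irx1 to Irx6 in order of number were 0.19, 0.26, 0.35, 0.21, 0.73 and 1.08, Prox1 was 0.31, Hand2 -0.0090, Jag1 -0.82, Gata4 0.12, Gata6 0.14, Shox2 -0.90 and 2 Tbx3 probe sets 0.85 and -0.00011. With the most variable probe set Tbx3 was -0.32 and Gjc1 0.019. Signal over background was not given, so which dim probe sets measured a transcript is unknown.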

Other observations

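The remaining lists of other cell types gave no call. Of 5 smooth muscle markers 0 passed in limma and 2 had an unadjusted p under 0.05 (40%, against 20.6% of all genes). Their mean log2 signal was 10.41 to 10.80 in Hccs het KO hearts and 10.07 to 10.99 in control hearts. Of 6 macrophage markers 0 passed in limma and 0 had an unadjusted p under 0.05, with means of 7.66 to 8.12 in Hccs het KO hearts and 7.57 to 7.96 in control hearts. Of 6 measured red cell markers 0 passed in limma and 1 had an unadjusted p under 0.05, with means of 10.70 to 11.13 in Hccs het KO hearts and 10.71 to 11.59 in control hearts. Of 6 liver markers 0 passed in limma and 0 had an unadjusted p under 0.05, and 5 of the 6 had differences above 0, as did 11009 of all 18193 genes.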
